A study of Mus musculus and Acomys cahirinus with 84 samples.

Results

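Skin fibroblasts grown from wild mice were compared 24 h after 10 Gy of gamma irradiation with untreated cells of the same animals. The comparison holds 8 of the 84 libraries of the series, 4 labelled untreated and 4 labelled 10 gy, chosen by their titles and paired by replicate number. The series measured polyA RNA from primary skin fibroblasts of C56BL6 mice, wild mice and African spiny mice at 24 h and at 12 d, with doses of 0, 10 and 20 Gy. Besides the 8 libraries, values are set beside the 4 wild mouse libraries at 20 Gy and the 8 C56BL6 libraries at 0 and 10 Gy, all from the 24 h time point. The labels name no strain, genotype, sex or age for the wild mice, no transgene in any group and no radiation treatment of the controls. Library names give each replicate number (R1 to R4) 1 animal code, and that code is read here as 1 animal, so each group has 4 animals. All of these 24 h libraries carry the same batch label.

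Ionizing radiation breaks both strands of DNA. The kinase ATM senses the breaks and stabilizes the transcription factor p53, which switches on the CDK inhibitor p21 (Cdkn1a), its own inhibitor Mdm2, and genes of repair, metabolism and cell death. Through p21 the RB family and the DREAM complex then silence genes of DNA replication and mitosis, many of which carry CCAAT boxes and CHR elements just upstream of their start sites. Cultured fibroblasts usually arrest after such a dose rather than die, and may later become senescent, with loss of lamin B1 and secretion of cytokines, proteases and growth factors.

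Promoter windows of 3 cell-cycle genes and 1 p53 target are shown as examples with matches, because the results turn on these 2 groups. Each window is the 200 bases before the canonical transcript start on the gene's own strand, read from GRCm39 with GENCODE annotation. Capitals mark the CHR element (TTTGAA or TTCGAA), the CCAAT box (CCAAT) and the p53 decamer half-site, each on either strand. The windows are Aurkb chr11:68936267-68936466 (plus strand), Kif18b chr11:102815957-102816156 (minus strand), Mcm5 chr8:75835940-75836139 (plus strand) and Bax chr7:45116326-45116525 (minus strand).
Aurkb: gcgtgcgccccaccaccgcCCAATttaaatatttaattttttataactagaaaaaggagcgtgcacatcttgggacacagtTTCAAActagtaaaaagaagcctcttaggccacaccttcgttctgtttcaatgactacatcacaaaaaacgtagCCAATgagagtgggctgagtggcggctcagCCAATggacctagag
Kif18b: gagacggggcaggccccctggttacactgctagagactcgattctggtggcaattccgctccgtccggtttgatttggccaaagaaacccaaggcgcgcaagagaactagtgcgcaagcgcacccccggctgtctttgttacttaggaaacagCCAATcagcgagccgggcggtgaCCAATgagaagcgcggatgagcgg
Mcm5: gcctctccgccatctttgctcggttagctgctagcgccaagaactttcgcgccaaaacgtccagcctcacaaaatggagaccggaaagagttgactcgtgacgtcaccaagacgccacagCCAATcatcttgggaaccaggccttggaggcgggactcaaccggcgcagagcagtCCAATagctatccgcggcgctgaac
Bax: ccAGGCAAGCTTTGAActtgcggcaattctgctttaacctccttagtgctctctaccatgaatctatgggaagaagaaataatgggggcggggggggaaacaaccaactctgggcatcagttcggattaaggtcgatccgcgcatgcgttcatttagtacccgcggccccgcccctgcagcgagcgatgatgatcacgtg
The Aurkb window holds 1 CHR element and 3 CCAAT boxes, and those of Kif18b and Mcm5 hold 2 CCAAT boxes each. In the Bax window a p53 half-site overlaps a CHR element. Of 59 mitosis genes, 31 (52.5%) had a CCAAT box in the window and 12 (20.3%) a CHR element, against 32.4% and 10.3% of the 12510 protein-coding genes tested. Of 44 replication genes, 22 (50%) had a CCAAT box and 3 (6.82%) a CHR element. Of 52 p53 targets with a window, 13 (25%) had a p53 half-site, against 4.82% of all promoters tested. The cell-cycle motifs had shares near these in the p53 targets, 25 (48.1%) with a CCAAT box and 10 (19.2%) with a CHR element, so these shares are not particular to the genes that fell. Windows of Mki67 and Dscc1 held none of the 3 motifs, those of Ccnb1 and Ccna2 only a p53 half-site, and those of the p53 targets Inka2, Ano3, Pidd1, Dcxr and Perp no half-site. A match of letters is a description and was not tested as a binding site.

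The 10 Gy library of R1 stood apart from the other 7. It held 17.42 M counts against 29.05 to 32.64 M in the others, and 17843 genes had a count against 20635 to 22253. Ribosomal protein genes took 10.6% of its counts (3.17 to 4.41% elsewhere) and mitochondrial genes 0.983% (1.27 to 1.81%). In R2 to R4 library measures also moved with dose: the mitochondrial share was 1.36, 1.27 and 1.29% untreated and 1.68, 1.81 and 1.75% after 10 Gy, and genes detected were 20635, 20871 and 20806, then 22015, 22253 and 21846. The share of counts outside protein-coding genes was 1.19, 1.28 and 1.25%, then 1.36, 1.45 and 1.48%. The part of these measures in the results was not tested. The change of the 10 Gy library of R1 from the untreated library of R1 followed transcript length. Its median on the log2 scale was 0.79 in the shortest of 4 length classes of equal size, then 0.01, -0.49 and -0.97 in the longer ones. In the other 3 pairs, and in R1 at 20 Gy, these medians stayed between -0.06 and 0.03. Across 14418 genes, the change in R1 at 10 Gy correlated at 0.06, -0.03 and 0.06 with the changes of R2, R3 and R4, which correlated at 0.55 with each other and share no library with it. The animal matched its label: of 75, 11 and 57 genes with at least 10 counts in the untreated and 20 Gy libraries of R1 and no count in those of R2, R3 and R4 respectively, 68, 9 and 54 had counts in this library. The counts of genes called in the wild mouse comparisons are therefore given with and without R1. Values of lists and single genes are mostly given without R1, with 4-pair values for some. The part of transcript length, depth or RNA quality in the R1 values was not tested.

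**Figure D1:**
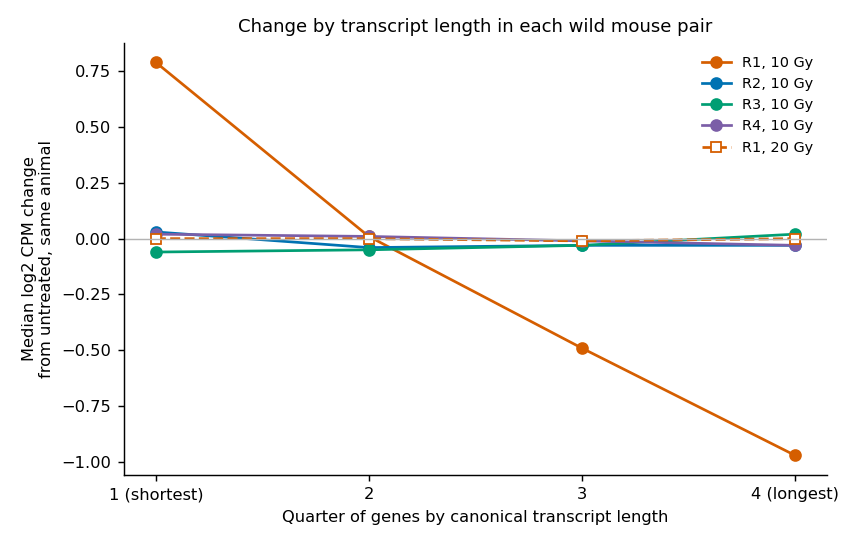
Median log2 CPM change from the untreated library of the same animal (vertical axis) in 4 classes of genes by canonical transcript length (horizontal axis). R1 at 10 Gy falls from 0.79 in the shortest class to -0.97 in the longest, while R2 to R4 at 10 Gy and R1 at 20 Gy stay near 0.

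The genes farthest from the other pairs in R1, given as a description, were of both kinds. Levels here and below are in CPM, counts scaled to a common library size. Vcl, the focal adhesion protein vinculin, stood at 1232 CPM in untreated R1 and 27.1 CPM after 10 Gy, against 401 to 884 CPM in the 6 libraries of R2 to R4. Med12, a subunit of the Mediator complex, stood at 52.4 and 0.614 CPM, and the autophagy gene Atg9a at 41.5 and 0.614 CPM. Pcdhgc3 and Rbpj-ps3 were the other 2 that were lower. In the other direction Tagln, a small actin-binding protein, stood at 65.7 and 596 CPM in R1 but between 23.01 and 41.3 CPM in R2 to R4, and Atp5me, a subunit of ATP synthase, at 41.6 and 370 CPM. Mir6236, Gm11942 and Rn18s-rs5 were the others that were higher, and their counts are uncertain where near-identical copies could share reads. At 20 Gy, R1 was back at 1233 CPM for Vcl and 58.4 CPM for Tagln.

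Fibroblast markers summed to 27700 to 47900 CPM in the untreated libraries and 21800 to 33500 CPM after 10 Gy, with Col1a1 the highest. All 12 had counts. Markers of keratinocytes, endothelial cells and Schwann cells summed to 0.79 to 11.3 CPM, and Krt1, Tie1 and Foxd3 had no count in any of the 8 libraries. Leukocyte and macrophage markers summed to 17.2 to 50.6 CPM, led by Csf1r, with Tyrobp at 0. Melanocyte markers reached 41.8 CPM, led by Mitf, with Tyr at 0, and adipocyte markers 72.7 CPM, led by Pparg, with Lep at 0. Skeletal muscle markers ranged from 17.9 to 830 CPM and pericyte and smooth muscle markers from 65.3 to 2420 CPM, led by Acta1 and Des, with the highest sums in R1 and Ckm at 0. In the test on R2 to R4 described next, 5 of 11 fibroblast markers that passed the filter on low counts fell and 2 rose, with a median log2 fold change of -0.29. Of the other lists, 3 of 5 pericyte and smooth muscle markers rose, 1 of 1 of skeletal muscle, 1 of 4 each of endothelial cells and leukocytes, and 1 of 2 of adipocytes, against 11.5% of all genes, and none fell. Their part in other results was not tested. In bulk RNA, fewer cells of a type and less RNA per cell cannot be told apart.

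With R1 left out, 3309 of 14418 genes passed an adjusted p of 0.05 (23%), 1654 of them higher (11.5%) and 1655 lower (11.5%) after 10 Gy. The test was edgeR's quasi-likelihood test with the animal as a block and Benjamini-Hochberg adjustment. A change of at least 2-fold was seen in 400 of the genes that rose and 166 of those that fell. With all 4 pairs, 0 of 14412 genes passed (0%) and 1564 had an unadjusted p under 0.05, while DESeq2 called 384 genes and limma with sample quality weights 3468, of which 3024 were among the 3309. Those weights were 0.0669 for the 10 Gy library and 0.109 for the untreated library of R1, against at least 1.85 for each of the other 6. Without the block, 0 genes passed in the 3 pairs and 1260 had an unadjusted p under 0.05, so the calls rest on the pairing by replicate number. "Rose" and "fell" below refer to the test on R2 to R4, and log2 fold changes are from that test. Counts of list members that rose or fell stand against 11.5% of all genes in each direction. The standard error (SE) was worked out as the absolute log2 fold change divided by the square root of the F statistic.

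The genes called without R1 could be looked at in R1 at 20 Gy, a library that the test had not used. Of the 1654 that rose, 79.1% were higher in R1 at 20 Gy than in untreated R1, against 49.4% of all genes tested. Of the 1655 that fell, 70.9% were lower, against 50.6%. At 10 Gy in R1 the same shares were 43.3% against 42% and 64.1% against 58%, and both doses share the untreated library of R1.

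p53 targets of cell-cycle arrest and feedback were mostly higher. Of 18 tested, 13 rose (11.5% of all genes did) and 0 fell. The median log2 fold change was 0.64 against 0.01 over all genes, and 0.57 with all 4 pairs. R1 alone did not share it, with a median log2 CPM change of -0.25 at 10 Gy and 0.32 at 20 Gy. At 10 Gy 8 of the 18 were higher in R1, against 42% of all genes. Cdkn1a, which encodes p21, stood at 296, 97.5, 171 and 146 CPM in the untreated libraries of R1 to R4 and at 513, 348, 397 and 323 CPM after 10 Gy. The 4 irradiated libraries lay above all 4 untreated ones, and untreated R1 was already the highest of its group. In 7 of the 18 genes the irradiated libraries of R2 to R4 lay above the untreated ones, as in 6 of 17 and 8 of 19 of the p53 lists that follow, against 5.85% of all genes. The log2 fold change of Cdkn1a was 1.42 ± 0.12 (SE, 3 pairs, adjusted p = 4.33e-05 in edgeR), and 1.31 with all 4 pairs (adjusted p = 0.196).

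Mdm2, the ubiquitin ligase that degrades p53, stood at 150, 112, 104 and 146 CPM in untreated cells and at 164, 299, 255 and 357 CPM after 10 Gy. R2 to R4 more than doubled and R1 hardly moved. The log2 fold change was 1.36 ± 0.06 (SE, 3 pairs, edgeR adjusted p = 7.06e-06). Ccng1, a cyclin that feeds back on Mdm2 and p53, showed the same split, from 542, 339, 332 and 439 CPM to 532, 930, 854 and 970 CPM. It rose by 1.35 on the log2 scale in the test on R2 to R4, and in R1 it was 819 CPM at 20 Gy.

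Trp53inp1, which promotes p53 phosphorylation, went the other way in R1. It stood at 35.9, 15.3, 14.1 and 32.7 CPM untreated and at 13.4, 50.2, 60.1 and 79.0 CPM after 10 Gy, with R1 at 62.97 CPM after 20 Gy. Inka2, an inhibitor of the kinase PAK4, had the largest change of this list, from 10.53, 4.67, 2.81 and 8.78 CPM to 18.1, 22.3, 14.5 and 26.9 CPM, higher in every pair. Psrc1 (1.24), Btg2 (0.76), Phlda3 (0.67), Zmat3 (0.62), Pvt1 (0.53), Plk2 (0.46), Plk3 (0.31) and Sesn2 (0.28) also rose, in log2 fold change. Sesn1, Ppm1d, Ccng2, Gtse1 and Trp53cor1 did not pass, and their values ran from -0.15 to 0.76.

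Of 17 p53 targets of cell death, 12 rose and 1 fell, with a median of 0.58 (0.59 with all 4 pairs, 0.13 in R1 alone). Pidd1, the scaffold of the PIDDosome, stood at 10.1, 7.75, 7.49 and 10.4 CPM untreated and at 10.3, 25.3, 29.6 and 30.5 CPM after 10 Gy. R2 to R4 were more than 2-fold higher and R1 was flat. Eda2r, a death receptor of the TNF family, stood at 44.9, 26.5, 18.4 and 44.8 CPM and then at 18.3, 95.1, 59.7 and 84.7 CPM. It rose by 1.5 ± 0.15 (SE, edgeR adjusted p = 0.000127), while R1 went down by 1.29.

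The BH3-only genes Pmaip1 (Noxa, log2 fold change 1.81) and Bbc3 (Puma, 0.69) rose, as did Perp (1.01), the death receptors Fas (0.87) and Tnfrsf10b (0.66), Trp53i11 (0.66), Ei24 (0.58), the nuclease Aen (0.55) and Apaf1 (0.34). Bax, the pore-forming effector, was 51.4, 51.4 and 59.7 CPM in untreated R2 to R4 and 70.8, 69.6 and 78.3 CPM after 10 Gy. In R1 it went from 64.2 to 212 CPM, the value farthest from its group. Dram1, a lysosomal regulator of autophagy, fell by 0.88. Bid, Casp6, Siva1 and Steap3 did not pass, at -0.05 to 0.08.

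Among 19 p53 targets of repair and metabolism, 12 rose and 0 fell, with a median of 0.65 (0.45 with all 4 pairs, -0.21 in R1 alone). Ano3, a membrane protein of the anoctamin family, stood at 1.92, 0.374, 1.10 and 2.28 CPM and then at 2.95, 2.78, 9.88 and 11.3 CPM. Its log2 fold change of 2.74 ± 0.21 (SE, edgeR adjusted p = 4.26e-05) was the largest of the list, from a low level. Dcxr, a reductase of dicarbonyls and xylulose, rose in all 4 animals, from 15.4, 16.4, 11.5 and 13.8 CPM to 74.8, 37.5, 30.4 and 38.3 CPM.

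Gdf15, a secreted stress cytokine, stood at 13.9, 7.22, 5.53 and 17.3 CPM untreated and at 33.4, 24.2, 9.91 and 41.3 CPM after 10 Gy. The groups overlapped, because animals differed in level, but every pair was higher. The log2 fold change was 1.33 ± 0.14 (SE, edgeR adjusted p = 0.000179). The translesion polymerase Polk (0.93), Exoc4 (0.87), the epoxide hydrolase Ephx1 (0.82), Cpt1c (0.75), Lif (0.73), Ercc5 (0.71), Abhd4 (0.65), Abcb1b (0.45) and Rps27l (0.37) rose too. The nucleotide excision repair genes Xpc and Ddb2, the ribonucleotide reductase subunit Rrm2b, Tigar, Fdxr, Gls2 and Ackr3 did not pass, at -0.20 to 0.22.

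**Figure D2:**
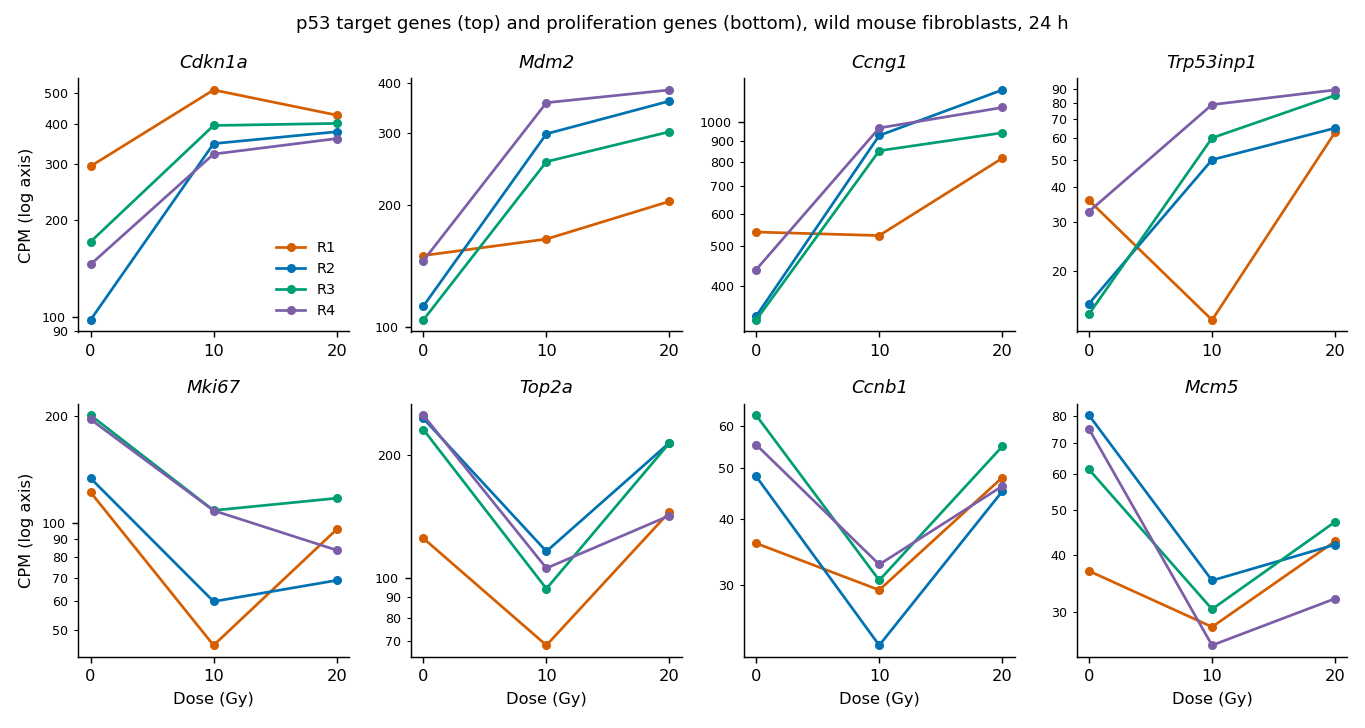
CPM (log axis) of 8 genes at 0, 10 and 20 Gy, 1 line per animal. In R2 to R4 the 4 p53 targets on top are higher at 10 Gy and the 4 proliferation genes below are lower, and R1 (orange) departs from them at 10 Gy in Mdm2, Ccng1 and Trp53inp1.

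All 59 mitosis, kinetochore and cytokinesis genes tested fell (11.5% of all genes did). The median log2 fold change was -0.97 (-0.87 with all 4 pairs). In 55 of them the 3 irradiated libraries of R2 to R4 lay below the 3 untreated ones, against 10.1% of all genes. With R1 included, 32 of the 59 kept groups that did not overlap, against 3.33% of all genes. Their summed level was 2139, 3076, 3513 and 3212 CPM in untreated R1 to R4 and 1690, 1546, 1795 and 1788 CPM after 10 Gy. Untreated R1 was the lowest of its group, and the irradiated libraries lay close together. In the fit of 11 libraries, with R1 at 0 and 20 Gy but not at 10 Gy, all 59 fell as well (9.2% of all genes did). There 11 of the 18 cell-cycle targets of p53 rose (8.71%). The 10 Gy libraries of that fit are those of R2 to R4, so it is not a separate test of the change at 10 Gy. Within R1, 43 of the 59 were lower at 10 Gy (58% of all genes were), but 39 were higher at 20 Gy (49.4%).

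Mki67, the Ki-67 protein that coats mitotic chromosomes, stood at 122, 134, 201 and 196 CPM untreated and at 45.15, 59.99, 108.3 and 108.2 CPM after 10 Gy. All irradiated libraries were below all untreated ones. It fell by 0.94 on the log2 scale (SE 0.08, edgeR adjusted p = 4.33e-05), and in R1 it was lower by 1.43. Top2a, the topoisomerase that untangles sister chromatids, fell by 1.18, from 125, 246, 231 and 250 CPM to 68.5, 116, 94.2 and 106 CPM.

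Aurkb, the kinase of the chromosomal passenger complex, changed most in this list. It stood at 18.6, 34.9, 36.3 and 31.1 CPM and then at 9.58, 12.4, 10.3 and 12.0 CPM, with no overlap, and fell by 1.54 (SE 0.10, edgeR adjusted p = 2.57e-05). Fbxo5, the inhibitor of the anaphase-promoting complex, fell by 1.52 and Esco2, the cohesin acetyltransferase, by 1.51. Ccnb1, cyclin B1, was 35.99, 48.1, 62.8 and 55.2 CPM and then 29.4, 23.1, 30.6 and 32.8 CPM. It fell by 0.92, with all 4 irradiated libraries lower. The smallest changes were in Pttg1 (-0.45), Kif20a (-0.49) and Cenpa (-0.50).

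Of 44 replication and nucleotide supply genes, 43 fell, with a median of -0.95 (-0.69 with all 4 pairs), and Rrm2 did not pass (-0.25). In 39 of them the libraries of R2 to R4 did not overlap, and with R1 included 13 did not. Mcm5, a subunit of the replicative helicase, was 36.9, 80.5, 61.4 and 75.2 CPM untreated and 27.9, 35.2, 30.5 and 25.4 CPM after 10 Gy. Untreated R1 lay just above the highest irradiated library, so the groups did not overlap. The log2 fold change was -1.23 ± 0.10 (SE, edgeR adjusted p = 5.44e-05), and -0.98 with R1 (adjusted p = 0.291).

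Dscc1, which loads the sliding clamp for cohesion (-1.47), the GINS subunit Gins1 (-1.45) and the licensing factor Cdc6 (-1.43) fell most. In R1 both Dscc1 and Gins1 were higher after 10 Gy, from 1.45 to 4.24 and from 2.84 to 7.68 CPM. The checkpoint adaptor Clspn (-1.33), the licensing factor Cdt1 (-1.20), thymidine kinase Tk1 (-1.17) and the clamp Pcna (-0.96) fell as well. In R1, 21 replication genes were higher and 23 lower at 10 Gy, against 42% and 58% of all genes.

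Regulators of the cycle split. Of 22 genes, 13 fell and 4 rose, with a median of -0.45. Mybl2, the MYB protein that joins FOXM1 on mitotic promoters, was 13.6, 13.6, 14.6 and 14.2 CPM in untreated R1 to R4 and 5.90, 5.01, 5.78 and 5.27 CPM after 10 Gy. It was among the most even genes over the 4 animals, and fell by 1.37 (SE 0.11, edgeR adjusted p = 4.33e-05). The repressors E2f8 (-1.17) and E2f7 (-1.07), the pocket protein Rbl1 (-1.07), Foxm1 (-0.90), cyclin E2 (Ccne2, -0.93) and Myc (-0.72) fell. Cyclin D1 (Ccnd1, 0.95), Cdk6 (0.60), cyclin D2 (Ccnd2, 0.53) and Rb1 (0.42) rose. All 4 went the other way in R1, with changes of -2.03, -0.93, -0.87 and -1.77. With all 4 pairs their log2 fold changes were 0.32, 0.30, 0.23 and -0.05. E2f1, E2f2, E2f3, Rbl2 and Ccnd3 did not pass.

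Of 25 homologous recombination and Fanconi anemia genes, 21 fell and 0 rose, with a median of -0.81 (-0.85 with all 4 pairs). Rad51ap1, a recombination factor that binds DNA, was 5.75, 10.7, 8.56 and 11.2 CPM untreated and 3.44, 3.73, 2.69 and 3.81 CPM after 10 Gy, with no overlap. It fell by 1.55 (SE 0.13, edgeR adjusted p = 4.55e-05). The nuclease Exo1 (-1.49), the helicase Blm (-1.25) and Brca1 (-1.08) fell, and Xrcc3, Rad51d, Rad52 and Helq did not pass. Of 26 genes of damage signalling and end joining, 12 fell and 0 rose. Chek1 (-0.87), Wee1 (-0.73) and Topbp1 (-0.69) fell most and Trp53 itself by 0.27. Among end-joining genes Xrcc6 fell by 0.47, while Prkdc, Xrcc4, Xrcc5, Lig4 and Nhej1 did not pass, at 0.03 to 0.16.

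**Figure D3:**
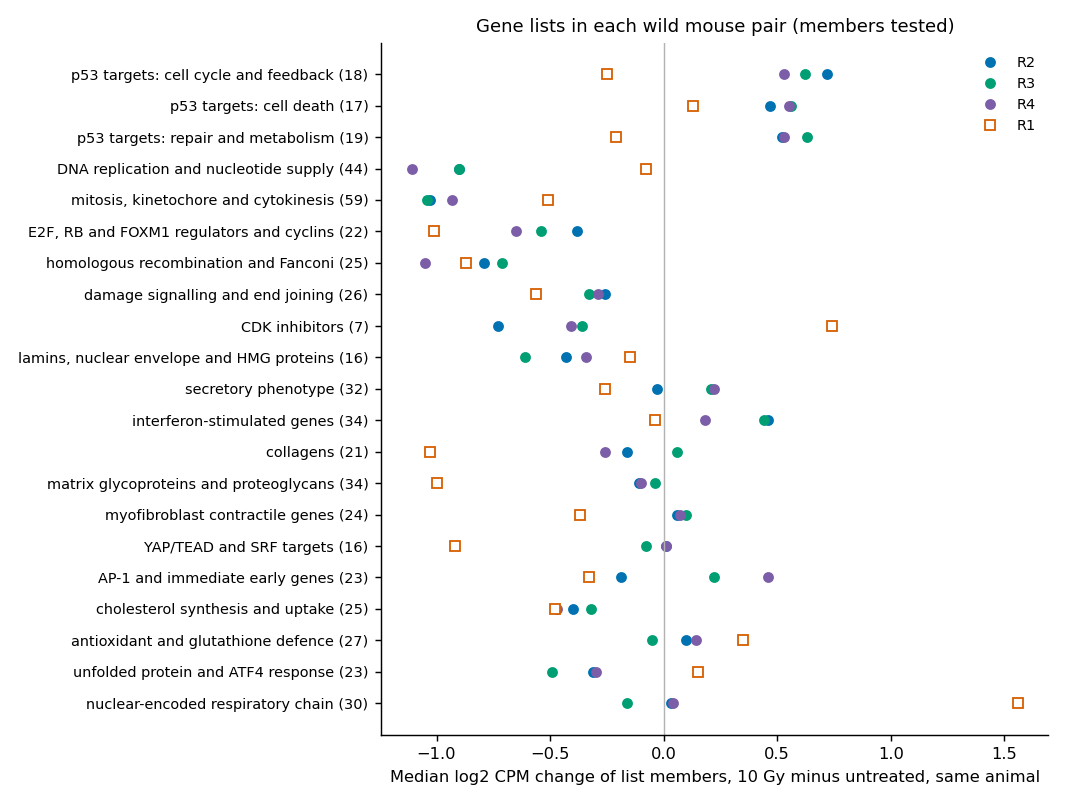
Median log2 CPM change of list members (horizontal axis) in each animal at 10 Gy, 1 row per gene list with the number of members tested. R2 to R4 (filled) lie together at -0.93 to -1.04 for mitosis and -0.90 to -1.11 for replication, and R1 (open squares) lies at -0.51 and -0.08.

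Of 7 CDK inhibitors, 1 rose, Cdkn1a, and 4 fell. Cdkn2c (p18, -1.03), Cdkn2d (p19, -0.93), Cdkn3 (-0.59) and Cdkn1b (p27, -0.35) fell. Cdkn2a, the p16 and ARF locus, was 54.3, 74.7, 48.04 and 82.2 CPM untreated and 135, 45.1, 50.6 and 74.7 CPM after 10 Gy. R1 was far above the rest, R2 was lower and R3 and R4 were close to their controls, with a log2 fold change of -0.24 (edgeR adjusted p = 0.219).

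Of 16 lamin, nuclear envelope and HMG genes, 10 fell and 3 rose. Lmnb1, lamin B1, was 42.4, 66.6, 93.8 and 62.1 CPM untreated and 33.9, 36.7, 43.8 and 33.5 CPM after 10 Gy, and fell by 0.92 (SE 0.07, edgeR adjusted p = 4.3e-05). Irradiated R3 lay just above untreated R1, and the groups did not overlap within R2 to R4. Hmgb2, an HMG-box protein of dividing cells, fell by 1.40, and Lmnb2 by 1.03. The AT-hook protein Hmga2 rose by 1.12, from 159, 33.3, 226 and 95.2 CPM to 159, 89.8, 422 and 187 CPM, and Hmga1 by 1.10.

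Of 32 genes of the senescence-associated secretory phenotype that were tested, 11 rose and 5 fell, where 11.5% of all genes rose and 11.5% fell. The share that fell was thus near that of all genes. The median was 0.20 (0.27 for the 36 tested with all 4 pairs). Il6 was 19.6, 25.96, 28.2 and 10.97 CPM untreated and 31.3, 16.03, 23.1 and 13.8 CPM after 10 Gy. R1 and R4 were higher and R2 and R3 lower (edgeR adjusted p = 0.358). Il11 rose by 1.51, from 9.11, 7.13, 5.46 and 11.5 CPM to 24.5, 36.1, 8.37 and 29.3 CPM. Osteopontin (Spp1, 1.19), Fgf2 (1.16), the adhesion molecule Icam1 (1.14), Serpinb2 (1.06), Ereg (0.70) and Ccl2 (0.39) rose. Igfbp3 (-1.70), Cxcl12 (-0.84), Plat (-0.40) and Angptl4 (-0.35) were among those that fell. For Igfbp3 this rests mainly on R4, where it went from 63.8 to 9.24 CPM, while R2 went from 2.33 to 1.85 and R3 from 0.979 to 1.09 CPM.

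Of 34 interferon-stimulated genes, 9 rose and 0 fell, with a median of 0.43 (0.30 for the 35 tested with all 4 pairs). Ifit3, an antiviral RNA-binding protein, was 1.19, 0.934, 0.948 and 1.002 CPM untreated and 4.61, 3.19, 3.43 and 1.72 CPM after 10 Gy, above in all 4 animals. It shares sequence with Ifit3b, so the split of reads between them is uncertain. Ifit1 rose by 1.27 (SE 0.36, edgeR adjusted p = 0.0305), but R4 went from 4.04 to 3.44 CPM. Isg15 (0.04) did not pass.

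Of 21 collagens, 3 rose and 6 fell, where 11.5% of all genes rose and 11.5% fell, so the share that rose was near that of all genes. Col7a1, the anchoring fibril collagen, was 30.5, 149, 12.4 and 40.1 CPM untreated and 57.3, 419, 48.7 and 152 CPM after 10 Gy, higher in each animal although the animals differed more than the doses, and rose by 1.81 (SE 0.10, edgeR adjusted p = 1.55e-05). Col15a1 rose by 1.06 and Col5a3 by 0.66, while Col14a1 fell by 1.04, Col3a1 by 0.91 and Col1a1 and Col1a2 by 0.35 each. Of 34 matrix glycoproteins and proteoglycans, 5 rose, a share near that of all genes, led by Spon2 (0.91), and 9 fell, among them Tnn (-1.14), Fmod (-0.76) and the crosslinking enzyme Lox (-0.59). Of 23 AP-1 and immediate early genes, 7 rose and 0 fell, led by the phosphatases Dusp1 (0.88) and Dusp5 (0.66) and by Klf4 (0.54).

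Genes of the contractile cytoskeleton and of YAP signalling differed little. Of 24 myofibroblast genes, 5 rose and 3 fell, all within 0.41 of 0, and smooth muscle actin (Acta2) was at 0.00. The share that fell was near the 11.5% of all genes, and 11.5% of all genes rose. For Lpp and Myh11 the direction turned with R1, as both rose without it and were lower in R1. Of 16 YAP/TEAD and SRF targets, Amotl1 (0.25) rose and Amotl2 (-0.30) fell.

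Cholesterol and unfolded protein response genes mostly fell, and respiratory chain genes stayed. Of 25 cholesterol genes, 15 fell and 0 rose, with a median of -0.33, among them Stard4 (-0.79) and Cyp51 (-0.62). Of 23 genes of the unfolded protein and ATF4 response, 16 fell and only the p53 target Sesn2 rose. Trib3, a pseudokinase induced by ATF4, was 71.7, 63.01, 43.8 and 75.3 CPM untreated and 92.1, 30.6, 21.8 and 47.1 CPM after 10 Gy, lower in R2 to R4 and higher in R1. The amino acid transporter Slc7a5 was lower in all 4 animals, from 338, 407, 364 and 394 CPM to 180, 262, 193 and 249 CPM. Of 30 respiratory chain subunits, 0 passed, with a median of -0.02 (0.40 with all 4 pairs, 1.56 in R1 alone).

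Of 27 antioxidant genes, 8 rose and 2 fell, where 11.5% of all genes rose and 11.5% fell. Nqo1, a quinone reductase, was 23.3, 26.1, 31.6 and 10.97 CPM and then 40.1, 61.1, 72.7 and 26.9 CPM, higher in every animal, and rose by 1.27 (SE 0.07, edgeR adjusted p = 2.17e-05). Gsta4 (1.20), Gss (0.59) and Hmox1 (0.48) rose, and extracellular superoxide dismutase Sod3 fell by 0.96.

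The genes with the largest increase outside these lists included several that differ strongly between animals. Prl2c3, a secreted prolactin family protein (proliferin), was 1.06, 6.44, 0.253 and 36.9 CPM untreated and 3.81, 96.5, 1.80 and 252 CPM after 10 Gy, higher in all 4. It rose by 3.25 (SE 0.20, edgeR adjusted p = 2.17e-05). Prl2c2, a near-identical copy whose reads cannot be separated with certainty, rose by 2.71. Ptprv, a receptor tyrosine phosphatase that is a p53 target in mice, was 1.78, 9.71, 0.600 and 8.44 CPM and then 1.11, 71.0, 20.7 and 35.5 CPM, higher except in R1, and rose by 2.93.

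Cd80, a costimulatory ligand of T cells, was 5.42, 2.18, 5.21 and 4.43 CPM untreated and 20.8, 17.2, 30.7 and 18.02 CPM after 10 Gy, a clear gap in all animals, and rose by 2.52 (SE 0.16, edgeR adjusted p = 2.54e-05). The ligand Wnt2 (2.20), the long noncoding RNA Miat (2.05) and Havcr2 (TIM-3, 1.95) rose as well. Havcr2 was 6.11, 1.93, 2.62 and 3.13 CPM and then 11.9, 9.16, 10.7 and 9.11 CPM.

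Among the genes that fell most, Ptx3, a secreted pattern recognition protein, was 16.8, 899, 22.7 and 915 CPM untreated and 16.6, 305, 7.19 and 284 CPM after 10 Gy. Levels of R2 and R4 were far above those of R1 and R3, yet the change was alike in R2, R3 and R4 (-1.56, -1.65 and -1.69) and absent in R1. Abi3bp, a matrix-associated protein, was 168, 5.31 and 510 CPM in untreated R2 to R4 and 40.4, 2.12 and 158 CPM after 10 Gy, and had no count in irradiated R1. Ankrd55 (-2.09), Rtn4rl2 (-1.82), the metallothionein Mt2 (-1.71), Map3k7cl (-1.61) and Galnt9 (-1.54) also fell. In R1, 3 of these went the other way: Mt2 from 15.4 to 48.2 CPM, Ankrd55 from 2.44 to 4.61 CPM and Galnt9 from 0.231 to 0.922 CPM.

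The same animals at 20 Gy show how far the response depended on dose. Without R1, 283 of 14620 genes differed between 20 and 10 Gy (1.94%, edgeR), 236 higher (1.61%) and 47 lower (0.321%) at 20 Gy. With all 4 pairs 0 of 14623 passed (0%), with 188 at an unadjusted p under 0.05, and without the block 0 passed, with 72. This comparison shares its 10 Gy libraries with the one against untreated cells. Among the mitosis genes 50 of 59 were higher at 20 Gy than at 10 Gy and 0 lower, with a median difference of 0.42. Among replication genes 12 of 44 were higher and among recombination genes 9 of 25, with medians of 0.26 and 0.43, and 0 were lower.

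Kif18b, a kinesin that shortens microtubule ends, was 7.28, 9.82 and 9.01 CPM at 10 Gy and 13.4, 23.2 and 14.6 CPM at 20 Gy in R2 to R4, against 17.96, 21.1 and 16.2 CPM untreated. Nusap1, a spindle protein, was 16.1, 18.7 and 20.7 CPM at 10 Gy and 36.4, 45.1 and 30.5 CPM at 20 Gy, against 37.3, 36.8 and 36.5 CPM untreated. The differences were 0.94 (SE 0.10) and 0.99 (SE 0.09) on the log2 scale, with edgeR adjusted p = 6.91e-08 and 2.59e-09. For both genes all 3 libraries at 10 Gy lay below all 3 untreated ones, and those at 20 Gy overlapped them.

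Top2a was higher at 20 Gy by 0.82 and Ccnb1 by 0.75, whereas Mki67 (-0.03) and Lmnb1 (0.05) did not pass. Against untreated cells, 25 of 59 mitosis genes were lower at 20 Gy with 4 pairs (5.19% of all genes were) and 36 without R1 (7.38%). Of the 18 cell-cycle targets of p53, 13 were higher at 20 Gy with 4 pairs (7.36%) and 15 without R1 (9.19%). The log2 fold changes against untreated cells, which share the control libraries, were -1.18 at 10 Gy and -0.35 at 20 Gy for Top2a, and -0.94 and -0.96 for Mki67. Of 54 p53 targets 11 were higher and 0 lower at 20 Gy than at 10 Gy, against 1.61% and 0.321% of all genes. Mdm2 (0.19), Ccng1 (0.21), Trp53inp1 (0.34), Inka2 (0.32), Dcxr (0.35) and Ano3 (0.56) were higher at 20 Gy and Cdkn1a (0.09) did not pass. Ifit1 was lower at 20 Gy by 0.91, at 8.56, 10.6 and 3.44 CPM and then 2.16, 6.02 and 3.83 CPM, so R4 did not share the direction. Slco5a1, a transporter of the organic anion family, was lower by 0.57, and Prl2c2 by 0.51. Slco5a1 was 0.149, 3.14 and 19.8 CPM and then 0.202, 1.68 and 14.3 CPM, so R2, at a low level, did not share the direction.

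**Figure D4:**
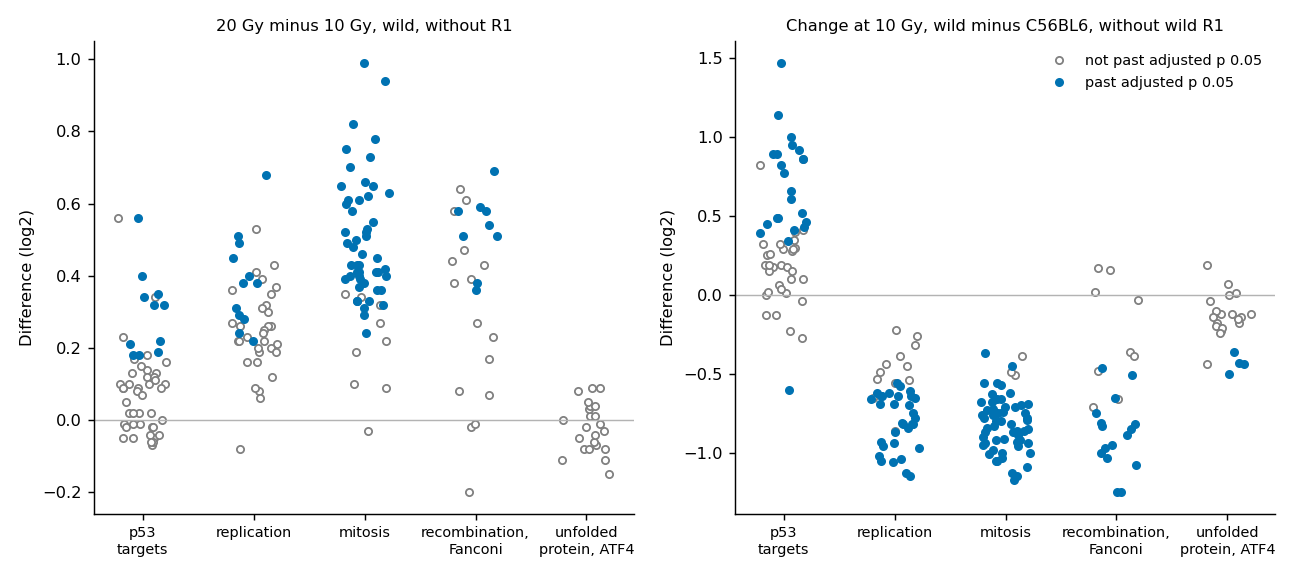
Log2 differences of single genes (points) in 5 gene groups, at 20 Gy minus 10 Gy without R1 (left) and for the change at 10 Gy in wild minus C56BL6 mice (right), filled where the adjusted p is under 0.05. Mitosis genes lie above 0 on the left with 1 exception, Mki67, and all below 0 on the right.

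Fibroblasts of C56BL6 mice, which share no library with those of wild mice, were tested in the same way. The labels give no sex, but C56BL6 R3 and R4 had 2377 to 2998 counts of the Y-linked gene Ddx3y in their 4 libraries, against 0 in C56BL6 R1 and R2 and in all wild libraries, so the groups differ in sex make-up. Of 14280 genes, 1646 passed (11.5%) with 4 pairs, a count that ran from 509 to 3400 as each C56BL6 replicate was left out and was 1 without the block. Of the 3309 genes called in wild mice, 976 were called in C56BL6 too, 29.5% of the wild list and 59.3% of the C56BL6 list, and 959 of them had the same direction. The difference between the changes, tested directly without wild R1, passed for 843 of 15659 genes (5.38%), 377 higher (2.41%) and 466 lower (2.98%) in wild mice. With wild R1 it passed for 0 of 15496 in edgeR (0%), with 959 at an unadjusted p under 0.05, and without the block for 0, with 281.

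For mitosis genes the median log2 fold change was -0.16 there with 15 of 59 lower (6.11% of all genes were). By the direct test the change in wild mice was lower in 56 of 59 (2.98% of all genes), with a median difference of -0.80. For replication genes the C56BL6 median was -0.21, and the difference passed in 32 of 44 genes, all lower in wild mice. With C56BL6 R1 and R2 alone, an alternative chosen after seeing the data, 43 of 59 mitosis genes (0.943% of all genes, and 1.59% in both directions) and 15 of 44 replication genes were lower in wild mice, with medians of -0.77 and -0.63. Top2a was 275, 196, 297 and 253 CPM in untreated C56BL6 cells and 200, 179, 217 and 210 CPM after 10 Gy, lower in each pair, a change of -0.31 against -1.18. The difference of -0.87 (SE 0.10) had an edgeR adjusted p of 0.000411. Mki67 (-0.78), Ccnb1 (-0.76), Mcm5 (-0.96) and Lmnb1 (-0.75) differed in the same direction.

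Among p53 targets the change was higher in wild mice in 9 of 18 genes of cell cycle and feedback, 3 of 17 of cell death and 9 of 19 of repair and metabolism, and lower in 1, of cell death. Of all genes 2.41% were higher and 2.98% lower, so the share that was lower was not above that of all genes. With C56BL6 R1 and R2 alone these counts were 7, 3 and 2 higher (0.652% of all genes) and 0 lower. Cdkn1a was 299, 416, 333 and 356 CPM in untreated C56BL6 cells and 418, 466, 453 and 504 CPM after 10 Gy. All 4 pairs were higher after 10 Gy. Wild R2 to R4 stood at 97.5, 171 and 146 CPM untreated and at 348, 397 and 323 CPM after 10 Gy. CPM of the 2 populations were scaled separately, so these levels are only set side by side. The difference in change was 1 (SE 0.14, edgeR adjusted p = 0.00101), and the part of the untreated level in it was not tested. Differences for Eda2r (0.82), Gdf15 (0.77), Ccng1 (0.61), Mdm2 (0.49) and Zmat3 (0.46) passed, and that for Bax (0.28) did not.

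Prl2c3 and Prl2c2 rose in wild mice and did not pass in C56BL6 cells, with log2 fold changes of 0.36 and -0.08 and differences of 2.88 and 2.77. C56BL6 cells expressed both before irradiation, at 15.7 to 55.4 CPM for Prl2c3. Igfbp3 differed by -2.09 and H2-T10, a class Ib histocompatibility gene, by -1.28. The change of Igfbp3 in wild mice rests mainly on R4 (-2.78, against -0.33 in R2 and 0.15 in R3). H2-T10 stood at 0.0686 to 0.677 CPM in C56BL6 cells, against 4.16 to 21.6 CPM in wild cells, each scaled within its population, and its change in wild mice was 0.00, so that difference rests on low counts. Of 32 interferon-stimulated genes tested in C56BL6 cells, 11 rose there (5.42% of all genes did), with a median of 0.54. By the direct test 0 of 36 were higher and 1 lower in wild mice, against 2.41% and 2.98% of all genes. The share that was lower was thus near that of all genes. The 1 gene was Isg15 (-1.15), named after its value was seen. The median difference of the list was -0.13.

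**Figure D5:**
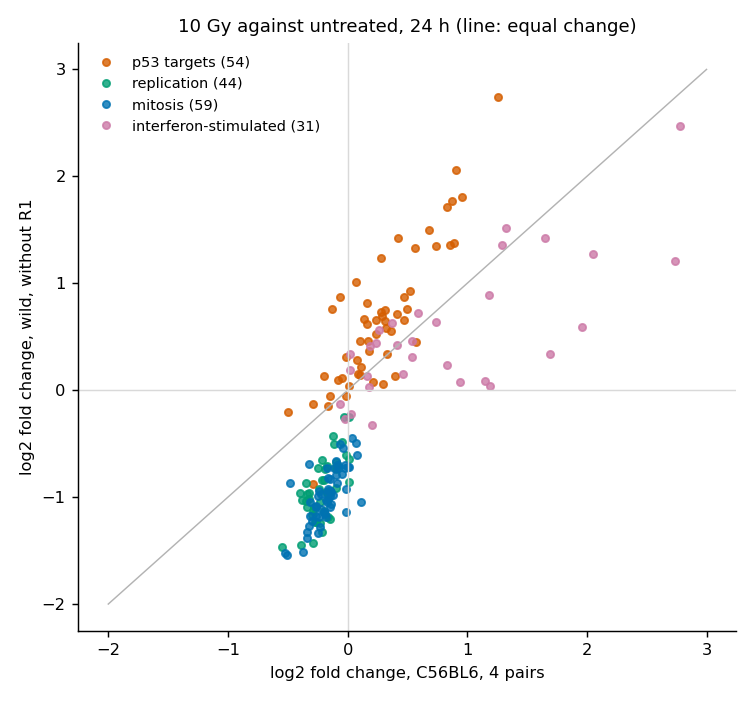
Log2 fold change at 10 Gy against untreated in wild mice without R1 (vertical axis) and in C56BL6 mice (horizontal axis), 1 point per gene of 4 gene groups, with the line of equal change. All 59 mitosis and 44 replication genes lie below the line, and 48 of 54 p53 targets above it.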

How the data were processed

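The deposited values are counts of reads per gene that the authors made with featureCounts 2.0.3 on an Ensembl release 108 annotation, per the file headers, after Trim Galore and HISAT2 on GRCm39, per the submitters' processing notes. The labels give a stranded mRNA library, but the counting command set no strand option, so antisense, overlapping and near-identical genes are uncertain. Gene IDs were matched to symbols with GENCODE M39 (56236 of 56980). Tests used edgeR 4.0.16 (R 4.3.3) with filterByExpr, TMM scaling, the replicate number as a block, quasi-likelihood and Benjamini-Hochberg adjustment at 0.05. CPM are library-size-scaled counts with TMM scaling over the 12 wild or, separately, the 12 C56BL6 libraries at 24 h, and pair changes use a prior count of 2. Deviations from group means correlated between same-numbered libraries at 0.47, 0.84, 0.79 and 0.81, and the shared code in the library names gives the pairing. At the floor of 3 counts, the depth allows 0.0919 to 0.172 CPM. Alternatives used DESeq2 1.42.0, limma 3.58.1, RLE scaling, no filter, no block, 3 doses in 1 fit and each replicate left out. In a test on simulated data, unchanged genes made up more of the calls than the threshold of 0.05 sets, except for 20 against 10 Gy, and with 4 pairs changes of up to 2-fold were seldom recovered. Genes named were a panel of 14, the 8 that rose and the 8 that fell most (mean of at least 5 CPM, same direction in 3 pairs), up to 3 per list, up to 2 per direction in the dose and population comparisons, and 5 per direction farthest from the other pairs in R1. Other list members are named to describe a list. Members and lists were chosen with earlier results of these data known. Some list members are counted but not reported by name here.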

Additional observations from a re-analysis of the deposited data

Results flagged for a closer look

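Within each group of 4 libraries, the gap between the most distant library and its neighbour was divided by the range of the group, and values above Dixon's critical value for 4 libraries are given here. Chance gives about 1 in 20 groups. Of 18 groups of library measures 6 passed (33.3%), and of 168 groups of gene levels 23 passed (13.7%). At 10 Gy, R1 was the distant library in genes detected (0.908), ribosomal protein share (0.899), mitochondrial share (0.843), share of counts outside protein-coding genes (0.897) and TMM factor (0.906). At 20 Gy it was R1 too, with the most genes detected (0.986), at 22729 against 22376 to 22381 in R2 to R4. That ratio is high because R2 to R4 lay close together.

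R1 was the distant library at 10 Gy for Bax (0.939), Mt2 (0.917), Map3k7cl (0.868), Dscc1 (0.91), Gins1 (0.915), E2f8 (0.835), Topbp1 (0.951), Cdkn2d (0.834), Hmgb2 (0.943), Eln (0.885), Klf4 (0.835), Sdf2l1 (0.847) and Ndufa4 (0.913). Among untreated libraries R1 was distant for Top2a (0.845), Pmaip1 (0.859) and Eln (0.924). R2 was distant for Miat (0.972 untreated, 0.96 at 10 Gy), Galnt9 (0.86 and 0.941) and, at 10 Gy, Sod3 (0.942). R4 was distant for untreated Prl2c3 (0.831) and Igfbp3 (0.835).

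The change at 10 Gy differed between wild and C56BL6 mice by the direct edgeR test without wild R1. On the log2 scale it was higher in wild mice for Cdkn1a (1), Mdm2 (0.49), Ccng1 (0.61), Gdf15 (0.77), Eda2r (0.82), Zmat3 (0.46), Prl2c3 (2.88) and Prl2c2 (2.77). It was lower for Mki67 (-0.78), Top2a (-0.87), Ccnb1 (-0.76), Mcm5 (-0.96), Lmnb1 (-0.75), Igfbp3 (-2.09) and H2-T10 (-1.28). The value of Igfbp3 rests mainly on wild R4 and that of H2-T10 on low counts.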

How the results depend on the processing

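With 4 pairs, 0 genes passed with RLE scaling, with no filter and without the replicate block (603 at an unadjusted p under 0.05), whereas DESeq2 called 384, limma with sample weights 3468 and 12 libraries in 1 fit 201. Leaving out each replicate gave 0 to 3309, the highest without R1. Without R1 the count was 3294 with RLE, 4039 with no filter, 2473 with DESeq2, 3519 with limma, 2797 with 11 libraries and 2531 to 3263 with 1 more replicate left out. Dropping the replicate block took it to 0, that of C56BL6 from 1646 to 1 and that of wild 20 Gy from 1816 to 0. Leaving out each replicate gave 3400, 812, 509 and 986 in C56BL6 mice, 2399, 961, 642 and 800 at 20 Gy (R1 to R4), 0 to 283 for 20 against 10 Gy and 0 to 843 for wild against C56BL6. In each of the last 2, only leaving out wild R1 gave calls. With C56BL6 R1 and R2 alone against wild R2 to R4 there were 257, and with C56BL6 R3 and R4 alone 758, both chosen after seeing the data. Of 98 gene results with 4 pairs, 9 had the other sign without replicate 1, and 2 of these passed the test there, Lpp (0.41) and Myh11 (0.32). Without R1, 83 of 98 lost their call without the replicate block and 5 with DESeq2, and none of the 98 changed with RLE. With 2 pairs left, calls rest on variance shared across genes. Apart from the alternative's own construction, the cause of these moves was not tested.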
